A study of Mus musculus with 9 samples.

Results

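The comparison described here sets mouse oocytes frozen by either of 2 methods against fresh oocytes, and asks which transcripts moved the same way with both methods. Members were chosen by the treatment label: the average of the 2 cryopreserved groups, each with a weight of 0.5, was compared with the fresh group. All 9 of the 9 libraries of the series enter this contrast, 3 per group. Of 26358 genes in the deposited table, 17545 had enough reads to be tested. The fresh oocytes were not frozen. The group called cryopreservation-1 was loaded on a cryotop, a device for freezing in a very small volume, in 15% ethylene glycol (EG), 15% DMSO and 0.5 M sucrose. The group called cryopreservation-2 was frozen in a straw in 17.5% EG and 1 M trehalose with nanoparticles of PVA, Fe3O4 and GO, and without DMSO or sucrose in its description. The labels give no strain, age or stage of the oocytes, no number of oocytes per library and no time of collection after warming, and nothing in them ties a replicate to its own animals or pool. The p-values thus cover the spread between these libraries, and that spread may be technical.

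Vitrification takes water out of a cell with penetrating agents such as ethylene glycol and DMSO and with sugars that stay outside, and then cools it fast enough to form a glass in place of ice. The oocyte meets osmotic stress, toxicity of the agents and cooling. A fully grown mouse oocyte is almost silent in transcription and lives on a store of maternal mRNA whose poly(A) tails are lengthened and shortened to control translation. These libraries were made from RNA selected on oligo(dT), so a value follows both how much of a transcript is present and how well its tail is captured. Fewer molecules of a transcript cannot be told apart from shorter tails. Levels are relative to the size of each library, so neither the number of oocytes nor the amount of RNA per oocyte can be read from them.

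Total counts lay between 49337232 and 80877288 per library, and all 3 libraries of cryopreservation-2 had fewer than any other library (at most 51369012). The number of genes without a read ran from 6351 to 9108. It was highest in fresh replicate 3, cryopreservation-2 replicate 1 and cryopreservation-1 replicate 3, and these 3 libraries were left out together as a check. The 36 oocyte identity genes, with which the label "oocyte" was checked, took between 5.45% and 7.54% of counts in every library. Their mean share was 6.47% in fresh oocytes (SD 0.964, n = 3), 6.24% with cryopreservation-1 (SD 0.682, n = 3) and 6.10% with cryopreservation-2 (SD 0.609, n = 3), and an exact two-sided permutation test of 6 libraries against 3 gave p = 0.595 (84 arrangements, smallest possible p 0.0119). Of 17 cumulus and granulosa markers in the table none was without reads in all libraries, and their summed share was 0.106% to 0.139% in fresh and 0.116% to 0.191% in cryopreserved libraries. Serpine2, with 55504 to 94527 counts per library, made up most of that sum in each library. Several others were at or near 0, such as Ptx3, whose only reads were 14 in cryopreservation-2 replicate 2. The summed share therefore follows Serpine2 and is no measure of the markers as a set. The 18 immune and blood markers summed to between 0.000899% and 0.00126% in fresh and between 0.000548% and 0.00172% in cryopreserved libraries, with 14 of them at 0 in all fresh and all cryopreservation-1 libraries. These 14, among them S100a8, C1qa and Hba-a1, had 133, 163 and 15 counts in all in the cryopreservation-2 libraries, and their part in the values of that group was not tested. The 14 stromal, epithelial and endothelial markers summed to between 0.0115% and 0.0186% in fresh and between 0.0119% and 0.0220% in cryopreserved libraries.

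No gene passed the test of the averaged contrast. edgeR's quasi-likelihood test with Benjamini-Hochberg adjustment over 17545 genes called 0 genes at an adjusted p under 0.05 (0%), and so none moved the same way with both methods by this test. The smallest adjusted p was 0.0517, and 96 genes (0.547%) had one under 0.10. At an unadjusted p under 0.05 there were 2233 genes (12.7%), of which 1272 were higher (7.25%) and 961 lower (5.48%) in cryopreserved oocytes. By itself, cryopreservation-1 differed from fresh at 0 genes (0%) and cryopreservation-2 at 944 genes (5.38%) in the same edgeR fit; these comparisons share the fresh libraries. Same-numbered fresh and cryopreservation-1 libraries deviated together; in a fit of these 6 libraries alone edgeR called 1 gene without and 1 with the replicate number as a block. It was 9330102E08Rik, named after its values were seen, with 15, 13 and 14 counts in fresh, 1435, 1483 and 1758 with cryopreservation-1, and 2, 585 and 13 with cryopreservation-2. A test that asks each method to differ from fresh by itself, from the larger of the 2 p-values, also called 0 genes with edgeR, while 383 genes (2.18%) had a larger p under 0.05 before adjustment.

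How many genes are called rests on the tool and on which genes are tested. DESeq2 called 707 of 16419 genes (4.31%), 519 higher (3.16%) and 188 lower (1.15%), and 303 of them were at least 1.5-fold the same way with each method. limma on log2(FPKM + 1) called 211 of 17545 genes (1.20%), 97.6% of them higher, and 72 were at least 1.5-fold the same way with each method on that scale, which understates changes of low genes. Restricting edgeR to the 4711 genes with a mean FPKM (reads or fragments scaled to transcript length and library size) of at least 5, one of the other settings run and not the main test, called 136 genes (2.89%), of which 123 were higher (2.61%) and 13 lower (0.276%). Of these, 131 had the same sign with both methods and 45 (0.955%) were at least 1.5-fold the same way with each, all 45 higher. In the same fit the methods differed from each other at 118 of the 136 and 28 of the 45 genes (edgeR adjusted p under 0.05). Over all 4711 genes they differed at 692. Leaving out 1 library moved the counts of 136 and 45. The count of 136 was 1 without fresh replicate 3, 2 without fresh replicate 1, 17 without fresh replicate 2, 3 without cryopreservation-1 replicate 2, 29 without cryopreservation-1 replicate 1, 161 without cryopreservation-1 replicate 3, 13 without cryopreservation-2 replicate 2, 40 without cryopreservation-2 replicate 3 and 216 without cryopreservation-2 replicate 1. The count of 45 ran from 0 without fresh replicate 3 to 91 without cryopreservation-1 replicate 3. The DESeq2 count lay between 413 and 1001 when 1 library was left out. The values below are therefore those of genes that edgeR did not call over all tested genes, and the tool is named wherever a call is given.

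**Figure D1:**
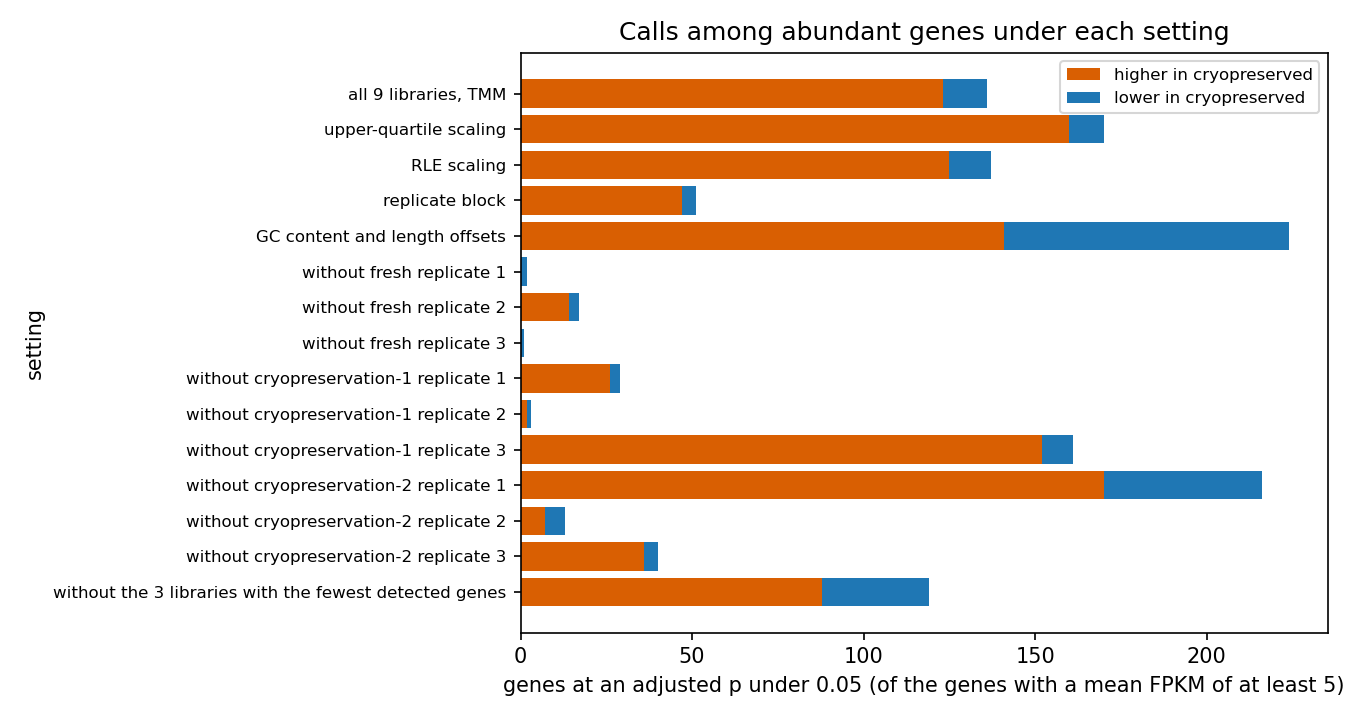
Number of genes with a mean FPKM of at least 5 that edgeR called at an adjusted p under 0.05 in the averaged contrast (x axis) under each setting (y axis), split into higher and lower in cryopreserved oocytes. The count is 136 with all 9 libraries and runs from 1 to 216 when 1 library is left out.

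For 677 genes (3.86%) the 6 cryopreserved libraries did not overlap the 3 fresh ones, 460 of them higher (2.62%) and 217 lower (1.24%). Adding an unadjusted p under 0.05 and at least 1.5-fold the same way with each method, a definition set after the absence of calls was seen, left 309 genes (1.76%), 245 higher (1.4%) and 64 lower (0.365%). The 245 higher genes had short transcripts: their median length was 1660 bases (interquartile range 1023 to 3051), against 2548 over all tested genes, and their median GC content was 51.9% against 48.7%. The 64 lower genes had a median length of 3575.5 bases and a GC content of 45.9%. Protein-coding genes made up 75.5% of the higher and 84.4% of the lower genes, against 76.0% over all tested genes. The change was larger with cryopreservation-2 in 207 of the 245 higher and in 49 of the 64 lower genes, against 12040 of 17545 tested genes. The contrast between the methods, in which fresh libraries enter only through the estimate of the spread, passed edgeR's adjusted threshold at 11 of the 245 and 2 of the 64 genes, against 483 of all tested genes (2.75%), and all 11 were higher with cryopreservation-2. That count was 0 without the 3 libraries with the fewest detected genes, and 0 without cryopreservation-1 replicate 1.

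The rule for named genes gave 15 higher genes with a mean FPKM of at least 5. Each of the 15 was called by DESeq2 and by limma, and none by edgeR over all genes. Over all the genes they tested, DESeq2 called 3.16% higher and limma called 1.20% in either direction. The 15 were chosen by p-value and lack of overlap in these same libraries, so calls by other tools are no separate support for them. Levels are TMM-scaled counts scaled to library size (CPM), and fold changes are from edgeR, on the log2 scale with the standard error (SE). Snrnp70, the U1 snRNP protein that helps define the 5′ splice site, stood at 33.4, 25.9 and 53.7 CPM in the fresh libraries, at 128, 64.3 and 108 with cryopreservation-1 and at 184, 330 and 312 with cryopreservation-2. The groups did not overlap, and the averaged log2 fold change was 2.14 (SE 0.33, edgeR adjusted p = 0.0709, DESeq2 adjusted p = 4.63e-08). Snrnp40, a subunit of the U5 snRNP, was at 29.4, 43.1 and 34.6 CPM in fresh, at 57.8, 60.4 and 59.8 with cryopreservation-1 and at 131, 157 and 103 with cryopreservation-2, a log2 fold change of 1.3 (SE 0.20, edgeR adjusted p = 0.0709).

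Sgf29, a reader of methylated histone H3 in the SAGA complex, was at 11.1, 18.8 and 16.3 CPM in fresh oocytes, at 22.4, 30.1 and 20.6 with cryopreservation-1 and at 114, 118 and 92.6 with cryopreservation-2. Its averaged log2 fold change of 1.73 (SE 0.24, edgeR adjusted p = 0.0556) joins 0.66 with cryopreservation-1 to 2.81 with cryopreservation-2, and the difference between the methods passed (edgeR adjusted p = 0.00831). Aurkaip1, a protein of the mitochondrial ribosome, was at 1.74, 3.44 and 3.03 CPM in fresh, at 5.78, 9.9953 and 7.05 with cryopreservation-1 and at 15.8, 17.4 and 15.0 with cryopreservation-2. Its log2 fold change was 2.01 (SE 0.31, edgeR adjusted p = 0.0709), with 1.48 and 2.55 for the methods in that order. Mrps12, another mitochondrial ribosomal protein, was at 2.12, 3.34 and 1.97 CPM in fresh and between 4.60 and 12.4 in the 6 cryopreserved libraries (log2 fold change 1.61, SE 0.29, edgeR adjusted p = 0.0975).

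Cox5a, a nuclear-encoded subunit of cytochrome c oxidase, was at 48.6, 64.3 and 57.6 CPM in fresh, at 82.5, 98.9 and 83.6 with cryopreservation-1 and at 140, 134 and 134 with cryopreservation-2. The log2 fold change was 0.95 (SE 0.16, edgeR adjusted p = 0.0898). Psma6, an alpha subunit of the proteasome, lay between 8.19 and 10.4 CPM in fresh, between 12.3 and 16.2 with cryopreservation-1 and between 31.3 and 37.7 with cryopreservation-2, a log2 fold change of 1.24 (SE 0.21, edgeR adjusted p = 0.0898). Arpc3, a subunit of the Arp2/3 complex that branches actin filaments, lay between 36.2 and 42.3 CPM in fresh, between 63.3 and 76.0 with cryopreservation-1 and between 83.6 and 122 with cryopreservation-2. The remaining genes named by the same rule were Dnajc14, Pcbd2, Pnn, Birc5, Pfdn5, Ddx28 and Tuba3a. They include the chromosomal passenger protein survivin (Birc5), the prefoldin subunit Pfdn5 and the mitochondrial ribosome assembly helicase Ddx28, and their log2 fold changes lay between 0.88 and 1.62. The level of Tuba3a is uncertain, since its reads can be shared with near-identical tubulin genes.

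Fewer genes stood below fresh, and the rule found only 6, against 61 higher ones: Zdhhc5, Parp12, Marchf7, Noct, Ptp4a1 and Yrdc. Noct, which encodes nocturnin, was at 753, 639 and 420 CPM in fresh, at 376, 377 and 213 with cryopreservation-1 and at 224, 411 and 304 with cryopreservation-2. The cryopreserved libraries all lay under the lowest fresh one, by a small margin for cryopreservation-2 replicate 2, and the log2 fold change was -0.93 (SE 0.26, edgeR adjusted p = 0.19), with -0.91 and -0.95 for the methods. Parp12, an ADP-ribosyltransferase, was at 1277, 991 and 960 CPM in fresh and between 469 and 839 in cryopreserved libraries, a log2 fold change of -0.80 (SE 0.20, edgeR adjusted p = 0.162). Marchf7, a ubiquitin ligase, was at 217, 233 and 199 CPM in fresh and between 109 and 168 in cryopreserved libraries (log2 fold change -0.66, SE 0.17, edgeR adjusted p = 0.17). Ptp4a1, a phosphatase, lay between 323 and 391 CPM in fresh and between 108 and 260 in cryopreserved libraries. DESeq2 called all of these 6 except Yrdc (1.15% of genes were called lower over all it tested), and limma called none of them. These 6 were likewise chosen from the same libraries.

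**Figure D2:**
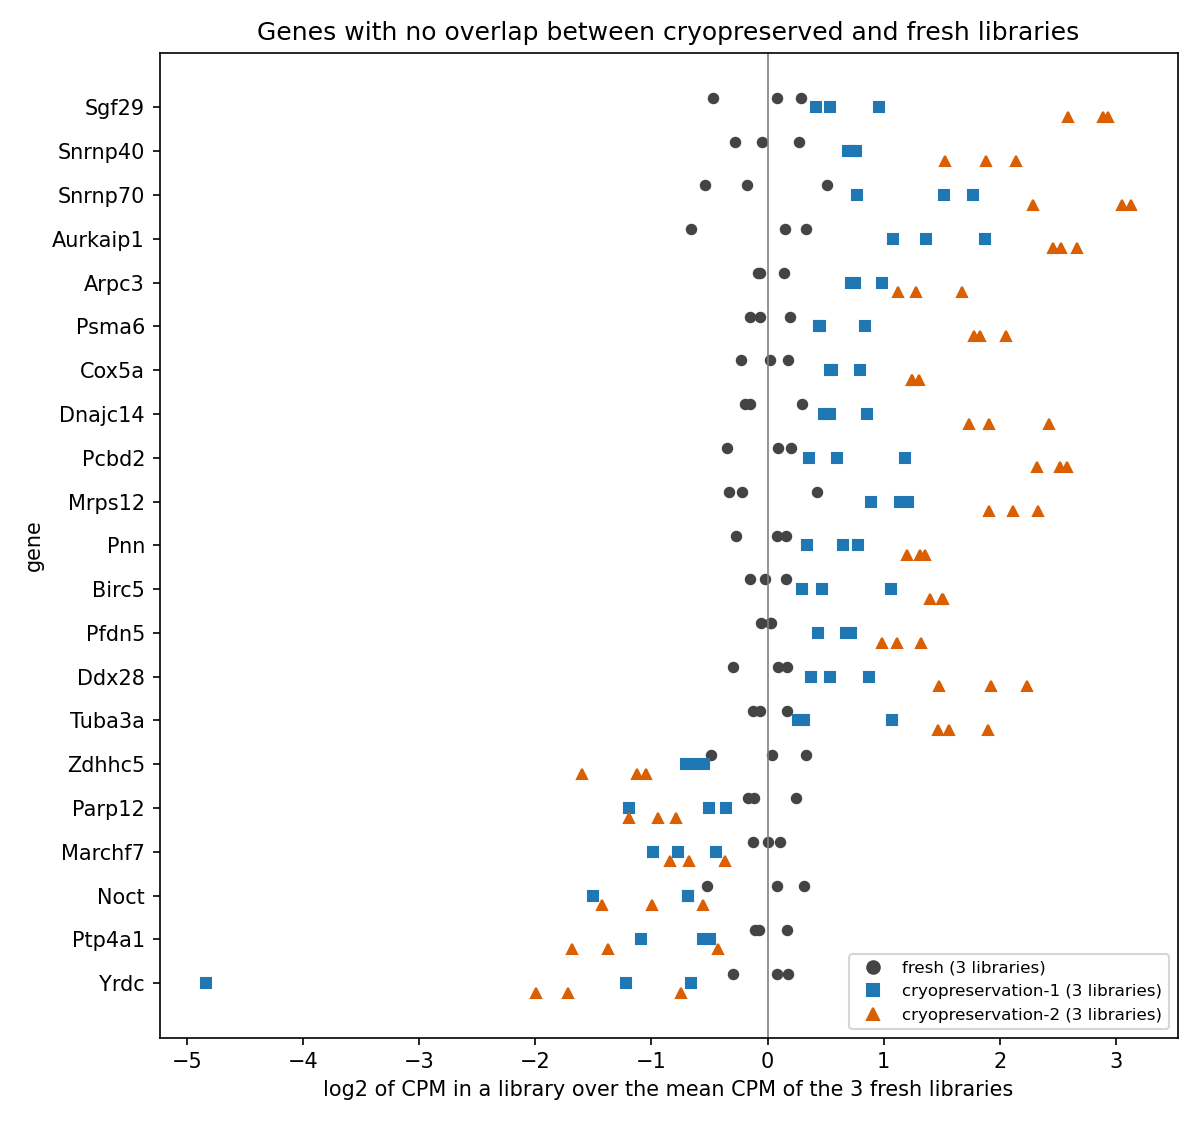
Level of the 15 higher and 6 lower genes named by the rule in each of 9 libraries, as log2 of its CPM over the mean CPM of the 3 fresh libraries (x axis); each point is 1 library, circles fresh, squares cryopreservation-1 and triangles cryopreservation-2. For the 15 genes at the top all cryopreserved libraries lie to the right of the fresh ones, with cryopreservation-2 farthest, while for the 6 genes at the bottom they lie to the left.

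A separate set was chosen for having no read in the fresh libraries. At 9 genes no read was counted in any fresh library and at least 3 in each of the 6 cryopreserved libraries. No gene had 0 counts in all 6 cryopreserved libraries and at least 3 in each of the 3 fresh ones. That search needed 0 counts in 6 libraries, not 3, so the numbers of genes cannot be compared between directions. The fresh libraries had at least 73899130 counts each, more than 4 of the 6 cryopreserved ones, and fresh replicate 3 had the most genes without a read of all libraries (9108). Trmu, the enzyme that thiolates mitochondrial tRNA, had 0 counts in all fresh libraries, 61, 66 and 114 with cryopreservation-1 and 85, 188 and 170 with cryopreservation-2. Its level pooled over the cryopreserved libraries was 142 times a floor of 3 counts over the fresh group. Alkbh4, a demethylase of the AlkB family, had 76, 33 and 24 counts with cryopreservation-1 and 39, 69 and 25 with cryopreservation-2. Its pooled level was 55.1 times that floor. Atf3, a transcription factor induced by many kinds of cell stress, had 37, 61 and 12 counts with cryopreservation-1 and 28, 67 and 20 with cryopreservation-2. Its pooled level was 46.6 times the floor. The floor covers counting error only, and replicates differed by more than that, so these values are no lower bounds. These are low levels: Atf3 lay between 0.194 and 1.22 CPM in the cryopreserved libraries, so the counts that separate the groups are few.

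The other members of this set were Elovl3, a fatty acid elongase (7 to 105 counts in cryopreserved libraries), Pmpca, a mitochondrial processing peptidase subunit (3 to 91), C7, a complement component (9 to 27), and the predicted genes Gm4926, 1700029F12Rik and Gm41177. Elovl3, Pmpca and Gm41177 overlap a gene on the other strand in the deposited table, and the strand setting of the counting is not given in the sources used here, so their reads cannot be told apart from those of the partner. DESeq2's test with each method by itself called 12 genes (0.0684% of 17545), a set chosen after the values were seen, and Trmu, Alkbh4, Atf3 and Gm4926 were among them. The others were Alox12, Cdk5rap3, Mrpl55, Fkbp6, Krt8, Rnaseh2a, Gm49527 and Gm49510; the last 2 were at 0 in 2 or more cryopreserved libraries and overlapped the fresh ones. Fkbp6, a co-chaperone of the piRNA pathway, was at 0.906, 0.777 and 0.451 CPM in fresh, at 2.70, 3.39 and 3.97 with cryopreservation-1 and at 14.6, 9.03 and 8.60 with cryopreservation-2, a log2 fold change of 3.07 (SE 0.38, edgeR adjusted p = 0.0556). Alox12, an arachidonate lipoxygenase, was at 4.76, 5.71 and 5.67 CPM in fresh, at 10.8, 13.8 and 11.6 with cryopreservation-1 and at 11.9, 9.52 and 12.6 with cryopreservation-2; its log2 fold change of 1.12 (SE 0.23, edgeR adjusted p = 0.102) was close with both methods, 1.16 and 1.08. Krt8, a keratin of simple epithelia, had 0, 4 and 0 counts in fresh libraries and between 36 and 205 in cryopreserved ones, while Epcam, another epithelial marker, had 157 to 182 in fresh and 69 to 294 in cryopreserved libraries.

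**Figure D3:**
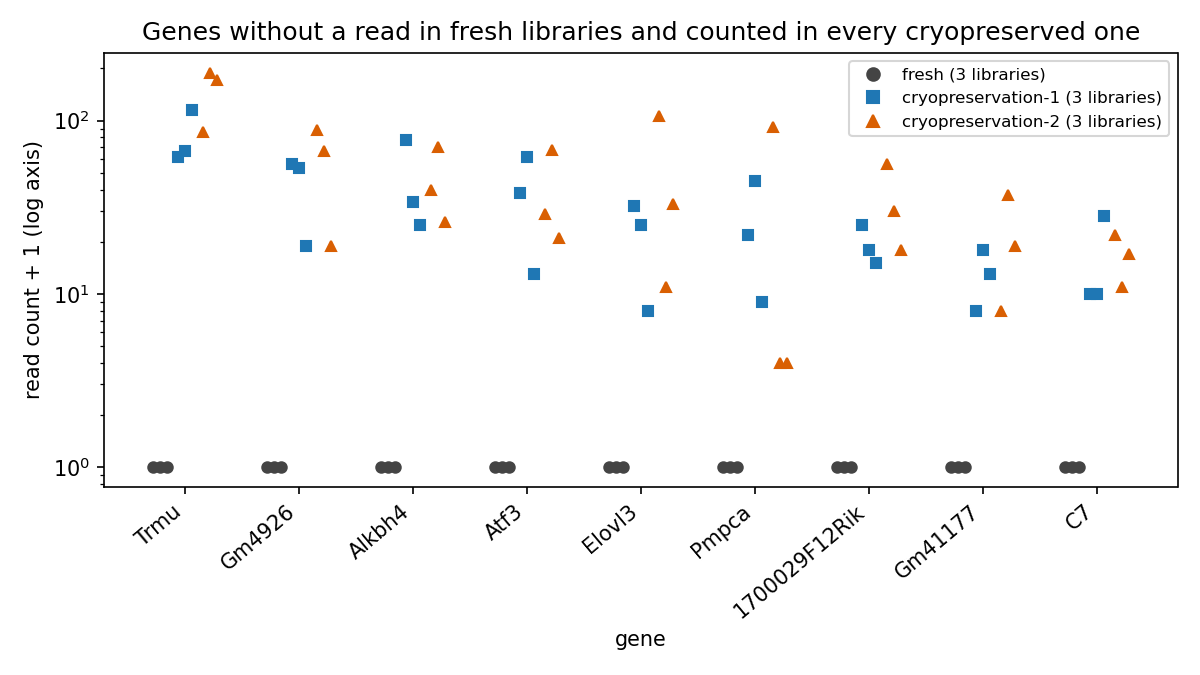
Read count plus 1 (y axis, log scale) in each library for the 9 genes without a read in any fresh library and at least 3 reads in every cryopreserved one; each point is 1 library. All fresh points lie at a count of 0, and the cryopreserved points run from 3 to 188 counts.

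The promoters of Trmu, Atf3 and Fkbp6 are shown because these genes separated the groups with both methods. Each is the window of 250 bases before the gene's start, 5′ to 3′ on the gene's strand, from RefSeq sequences of GRCm38.p6, with the start as RefSeq gives it; capitals mark the motifs named below, on either strand.
Trmu, chr15:85879077-85879326, plus strand: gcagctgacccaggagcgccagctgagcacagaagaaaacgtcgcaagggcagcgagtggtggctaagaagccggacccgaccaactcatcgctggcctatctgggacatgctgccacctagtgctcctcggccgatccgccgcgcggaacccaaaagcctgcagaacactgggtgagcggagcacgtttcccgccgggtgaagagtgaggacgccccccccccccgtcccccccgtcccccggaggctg
Atf3, chr1:191183334-191183583, minus strand: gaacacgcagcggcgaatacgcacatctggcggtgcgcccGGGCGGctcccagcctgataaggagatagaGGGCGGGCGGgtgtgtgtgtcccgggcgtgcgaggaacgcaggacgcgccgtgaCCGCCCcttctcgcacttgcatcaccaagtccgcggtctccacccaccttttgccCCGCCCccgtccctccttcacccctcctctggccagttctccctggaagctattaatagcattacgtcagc
Fkbp6, chr5:135350045-135350294, minus strand: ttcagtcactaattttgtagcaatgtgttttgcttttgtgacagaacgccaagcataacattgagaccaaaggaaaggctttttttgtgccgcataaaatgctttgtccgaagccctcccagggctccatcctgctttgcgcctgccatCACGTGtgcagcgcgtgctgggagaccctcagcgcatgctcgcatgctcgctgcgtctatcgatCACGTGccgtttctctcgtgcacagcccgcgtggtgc
Motifs searched were the TATA box (TATAAA), the CCAAT box (CCAAT), the GC box (GGGCGG), the heat shock element core (GAANNTTC), the cAMP response element (TGACGTCA), the E-box (CACGTG) and the NOBOX element (TAATTG). The Atf3 window held the GC box 5 times, with 2 of the matches overlapping, the Fkbp6 window held the E-box 2 times, and the Trmu window held none of them. A window was found for 11616 tested genes, among them 171 of the 245 higher and 45 of the 64 lower genes. The GC box lay in 48.5% of the higher genes' windows, 53.3% of the lower genes' and 52.9% of all windows. The E-box lay in 8.77%, 11.1% and 8.05% in that order, and the heat shock element core in 4.09%, 4.44% and 5.62%. The gene start in the deposited table differs: that of Trmu lies 15 bases before the end of the window, and that of Atf3 lies 34706 bases upstream of the end of its window, which is thus inside the deposited gene. For Fkbp6 the window farther upstream of the 2 that RefSeq gives is shown. A match of letters is a description and not a site.

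Over all tested genes edgeR called no member of any of the 33 lists of related genes. In its fit on genes with a mean FPKM of at least 5, 2.61% of all genes were called higher. There it called higher 6 of 37 members of nuclear-encoded oxidative phosphorylation, 5 of 32 mitochondrial and 3 of 23 cytosolic ribosomal proteins. It also called higher 3 of 29 proteasome genes and 3 of 56 splicing factors. Those also at least 1.5-fold the same way with each method numbered 3, 1, 1, 0 and 3 in that order, against 0.955% of all genes. All calls of that fit ran from 1 to 216 when 1 library was left out. Beside each list stands the value over all 17545 tested genes, whose median log2 fold change was -0.04 and of which 47.7% were above 0. At an unadjusted p under 0.05, 7.25% of all tested genes were higher and 5.48% lower, and DESeq2 called 3.16% higher and 1.15% lower. The nuclear-encoded subunits of oxidative phosphorylation had the second highest median: 70 of 81 tested members were above 0, the median was 0.80, 37 were higher (7.25% over all genes) and 0 lower at an unadjusted p under 0.05, and DESeq2 called 25 higher (3.16% over all genes). Among complex I subunits, Ndufb11 had a log2 fold change of 1.59 (SE 0.30) and Ndufs5 one of 1.32 (SE 0.26), with an edgeR adjusted p of 0.0975 for both. Cox4i1, a subunit of cytochrome c oxidase, was at 3.30 CPM in fresh (mean, n = 3), 5.36 with cryopreservation-1 and 15.3 with cryopreservation-2. The list's median was 0.23 with cryopreservation-1 and 1.38 with cryopreservation-2.

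Cytosolic ribosomal proteins had 64 of 76 members above 0 and a median of 0.88, with 22 higher (7.25% over all genes) and 0 lower at an unadjusted p under 0.05 and 13 called higher by DESeq2 (3.16% over all genes). Their median was 0.09 with cryopreservation-1 and 1.62 with cryopreservation-2, so the average stands for one method far more than for the other. Rplp0, of the large subunit's stalk, had a log2 fold change of 0.96 (SE 0.20, edgeR adjusted p = 0.103), with 0.54 and 1.37 for the methods. Reads of ribosomal protein genes can be shared with processed pseudogenes, which makes these levels uncertain. Mitochondrial ribosomal proteins had 63 of 77 members above 0 and a median of 0.44, with medians of 0.24 and 0.72 for the methods. Mrpl55 stood out among them with mean levels of 0.203 CPM in fresh, 1.69 with cryopreservation-1 and 2.27 with cryopreservation-2.

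Proteasome genes had 33 of 44 members above 0, a median of 0.43, and 9 called higher by DESeq2 (3.16% over all genes). Their median was 0.22 with cryopreservation-1 and 0.67 with cryopreservation-2. Antioxidant genes had 22 of 34 above 0 and a median of 0.26, with medians of 0.14 and 0.62 for the methods. At an unadjusted p under 0.05, 9 were higher (7.25% over all genes) and 0 lower (5.48%). Prdx5, a peroxiredoxin, had a log2 fold change of 1.02 (SE 0.22, edgeR adjusted p = 0.119), with 0.86 and 1.18 for the methods. Sod1, cytosolic superoxide dismutase, was at 33.6, 39.6 and 43.5 CPM in fresh, at 42.1, 56.5 and 34.6 with cryopreservation-1 and at 165, 133 and 115 with cryopreservation-2; cryopreservation-1 overlapped fresh, and the averaged log2 fold change of 1.01 (SE 0.21, edgeR adjusted p = 0.105) came with a difference between the methods (edgeR adjusted p = 0.0128).

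Splicing factors as a list stayed near the median of all genes (-0.01, 50 of 102 above 0). At an unadjusted p under 0.05, 16 were higher (7.25% over all genes) and 3 lower (5.48%). Ctnnbl1, a spliceosome-associated protein, was at a mean of 47.7 CPM in fresh, 84.5 with cryopreservation-1 and 84.7 with cryopreservation-2, and its log2 fold change of 0.83 (SE 0.18, edgeR adjusted p = 0.119) was 0.82 and 0.83 for the methods. Prpf31, a tri-snRNP protein, had log2 fold changes of 1.54 and 1.39.

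Other lists lay below 0. Each of the 13 mRNAs encoded by mitochondrial DNA had an averaged log2 fold change under 0, with a median of -0.48. The median was -0.52 with cryopreservation-1, where 0 of the 13 were above 0. It was -0.41 with cryopreservation-2, where 4 were above 0 and so did not move the same way with both methods. At an unadjusted p under 0.05, 4 were lower (5.48% over all genes), and neither edgeR nor DESeq2 called one. mt-Co1, a core subunit of cytochrome c oxidase, had a mean of 1179 CPM in fresh, 856 with cryopreservation-1 and 811 with cryopreservation-2 (log2 fold change -0.50, SE 0.22, edgeR adjusted p = 0.377). The list's level in single libraries was highest in fresh replicate 1 and lowest in cryopreservation-2 replicate 2, whose median stood at -0.80 against 0.27 and 0.30 in the other libraries of that group. The cryopreservation-2 group therefore overlapped the fresh one, and cryopreservation-1 did not.

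Genes of maternal mRNA storage and decay had 13 of 57 members above 0 and a median of -0.28. At an unadjusted p under 0.05, 11 were lower (5.48% over all genes) and 3 higher (7.25%). The list's median was -0.09 with cryopreservation-1 and -0.43 with cryopreservation-2. With offsets for GC content and transcript length the averaged median was -0.11. Pan3, a regulatory subunit of the Pan2-Pan3 deadenylase, had a log2 fold change of -0.61 (SE 0.15, edgeR adjusted p = 0.158), with -0.67 and -0.55 for the methods. Dazl, an RNA-binding protein of germ cells, had a mean of 1587 CPM in fresh oocytes, 1383 with the cryotop and 479 with the straw, and the methods differed (edgeR adjusted p = 0.0138). Pabpn1l, an oocyte poly(A)-binding protein, went the other way, with a log2 fold change of 0.90 (SE 0.24, edgeR adjusted p = 0.178). Osmotic response genes and water channels had 4 of 22 members above 0 and a median of -0.41, the largest departure below 0 after the mitochondrial genome. Their median was -0.17 with cryopreservation-1 and -0.56 with cryopreservation-2. Aqp9, a water and glycerol channel, was at 66.1, 61.5 and 85.3 CPM in fresh, at 59.2, 58.5 and 73.4 with cryopreservation-1 and at 25.4, 30.1 and 28.4 with cryopreservation-2. Lrrc8d, of the volume-regulated anion channel, had means of 74.1, 38.8 and 47.2 CPM in that order.

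Cold-inducible and cold-shock domain genes had 9 of 13 members above 0 and a median of 0.15. At an unadjusted p under 0.05, 2 were higher (7.25% over all genes) and 0 lower (5.48%). The stress lists lay near the median of all genes in the average of both methods. Heat shock proteins and co-chaperones had a median of -0.02 (18 of 37 above 0), the unfolded protein and integrated stress response -0.08 (15 of 34), and immediate early and stress transcription factors -0.08 (11 of 24), Atf3 among them. The last list went opposite ways: its median was 0.27 with cryopreservation-1 (15 of 24 above 0) and -0.33 with cryopreservation-2 (7 of 24). The medians for the methods were 0.04 and -0.05 for heat shock and -0.03 and 0.06 for the unfolded protein response. DESeq2 called 2, 2 and 1 members of the 3 lists higher (3.16% over all genes) and 0 lower. The cold-inducible RNA-binding protein gene Cirbp was at 20.2, 27.8 and 20.8 CPM in fresh and between 25.3 and 32.9 in cryopreserved libraries (log2 fold change 0.28, SE 0.19, edgeR adjusted p = 0.612). Rbm3, its relative, had a log2 fold change of 0.01 (SE 0.23, edgeR adjusted p = 0.993). Hspa1a, the inducible Hsp70, had a log2 fold change of 0.29 (SE 1.55) at levels of 0 to 1.20 CPM, and its sign turned when single libraries were left out. Gpx4, the glutathione peroxidase that guards lipids, lay between 2.74 and 5.14 CPM in fresh, between 1.73 and 6.05 with cryopreservation-1 and between 4.12 and 14.7 with cryopreservation-2. Of the oocyte-secreted factors, Gdf9 had a log2 fold change of -0.19 (SE 0.25) and Bmp15 one of -0.10 (SE 0.20). Aqp3 had reads in too few libraries to be tested.

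**Figure D4:**
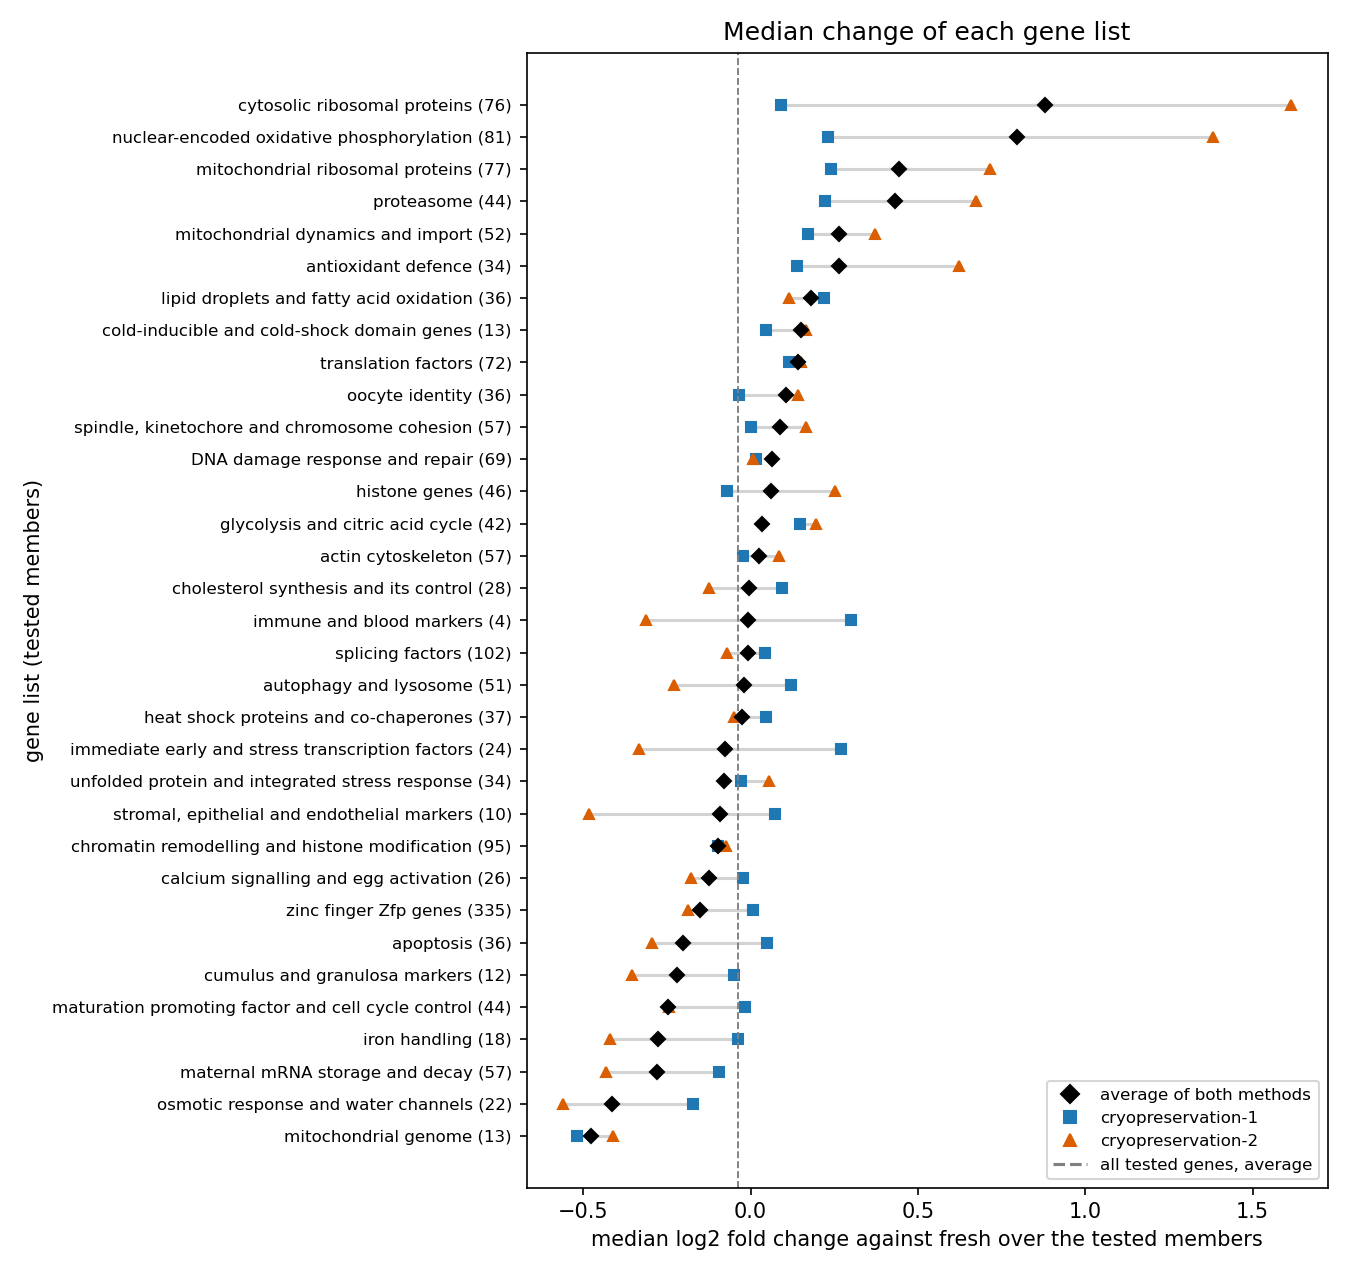
Median log2 fold change against fresh (x axis) over the tested members of each gene list (y axis), for the average of both methods (diamonds) and for each method (squares and triangles); the dashed line is the median of all tested genes, -0.04. Cytosolic ribosomal proteins and nuclear-encoded oxidative phosphorylation lie farthest to the right, at 0.88 and 0.80, and the mitochondrial genome farthest to the left, at -0.48.

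**Figure D5:**
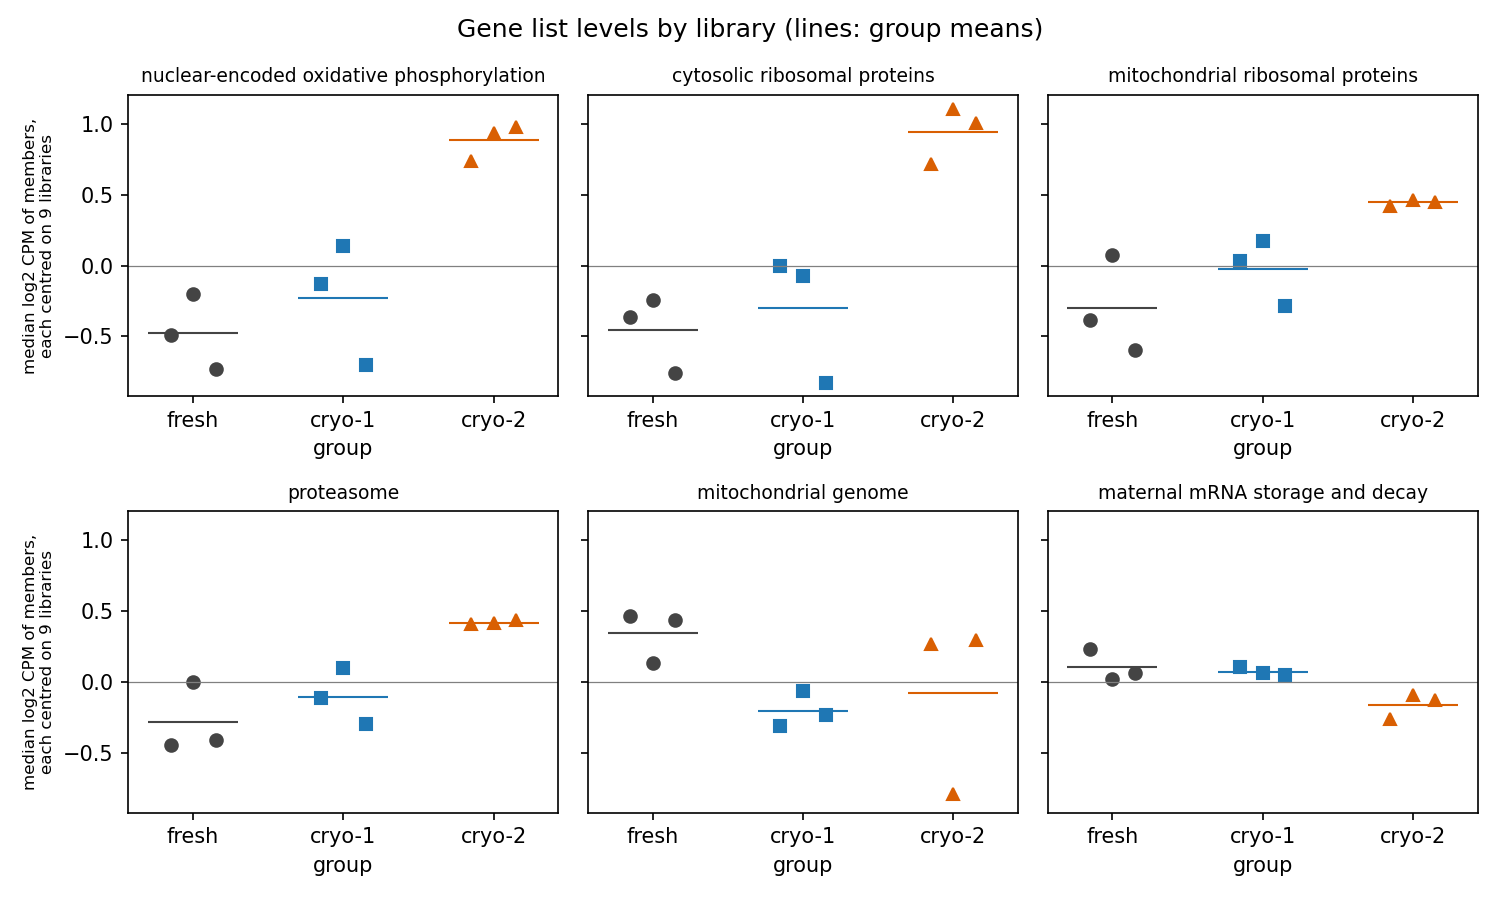
Level of 6 gene lists in each library (y axis: median over members of log2 CPM, each member centred on its mean over 9 libraries), by group (x axis, cryo-1 and cryo-2 for the 2 methods); horizontal lines are group means. For oxidative phosphorylation the fresh libraries lie between -0.73 and -0.20, cryopreservation-1 between -0.70 and 0.14 and cryopreservation-2 between 0.74 and 0.98.

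The levels by library show how far each method shared in these list values. The oxidative phosphorylation list was at -0.49, -0.20 and -0.73 in fresh libraries, at -0.13, 0.14 and -0.70 with cryopreservation-1 and at 0.74, 0.94 and 0.98 with cryopreservation-2, on the centred log2 scale. Cryopreservation-1 overlapped fresh through its replicate 3, the library of its group with the most genes without a read, as fresh replicate 3 was in its own, while cryopreservation-2 lay above both. Between same-numbered libraries, cryopreservation-1 minus fresh was 0.36, 0.34 and 0.03 for this list. The cytosolic ribosomal proteins lay likewise, with replicate 3 of fresh and of cryopreservation-1 lowest, at -0.36, -0.25 and -0.76 in fresh, 0.00, -0.07 and -0.83 with cryopreservation-1 and 0.72, 1.11 and 1.01 with cryopreservation-2, and their same-numbered differences were 0.36, 0.17 and -0.07. The part that the number of detected genes and the lower total counts of cryopreservation-2 have in these values was not tested. Without the 3 libraries with the fewest detected genes the averaged medians of the 2 lists were 0.83 and 0.91, and with offsets for GC content and transcript length they were 0.61 and 0.65.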

How the data were processed

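Poly(A) RNA of mouse oocytes was sequenced in 9 libraries. Per the submitters' processing notes, the tools named were cutadapt 1.9, HISAT2 2.0.4 and StringTie 1.3.4d, with the build GRCm38. No source used here names the counting tool or its strand setting. The authors deposited, per gene and library, whole-number read counts that were not normalized and FPKM values. All 9 libraries entered 1 edgeR 4.0.16 fit (R 4.3.3; filterByExpr with a minimum count of 10 and total of 15, TMM scaling, no replicate block), with the contrast of 0.5 of each method against fresh and Benjamini-Hochberg adjustment over 17545 genes at 0.05. DESeq2 1.42.0 and limma 3.58.1 (pseudocounts of 1 and 0.1 on FPKM), other scalings and filters, the replicate block, GC and length offsets and left-out libraries were alternatives. Replicates differed by more than sampling noise. A count of 0 allows up to 3 counts, which covers counting error only. Lengths and GC contents came from GENCODE transcripts of GRCm38.

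The members and gene lists were chosen with earlier results of these data known. The text names genes at least 1.5-fold the same way with each method and with no overlap of libraries. Their mean FPKM was at least 5 in the higher of the fresh and the cryopreserved libraries. Up to 15 per direction were named, passing over predicted symbols, plus 10 preset genes. The rule asked for called genes; since there were 0, the fill with uncalled genes was read as keeping the other conditions and ordering by p-value, and that reading was chosen after the values were seen. The definition of the 309 genes, the threshold of 0.10, the sets of 12 and 9 genes, the list members given as examples, the fit of fresh and cryopreservation-1 libraries alone, the check without 3 libraries and the further checks of the fit on genes with an FPKM of at least 5 and of DESeq2 were also set after the values were seen. The count of genes that differ between the methods was to be taken over called genes and was taken over the 309 instead.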

Additional observations from a re-analysis of the deposited data

Results flagged for a closer look

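At 20 of the genes named, Hspa8 not counted, the change differed between the methods by the tested contrast of cryopreservation-2 minus cryopreservation-1, at an edgeR adjusted p under 0.05. The log2 difference was 2.15 for Sgf29, 1.14 for Snrnp40, 1.3 for Psma6, 1.42 for Dnajc14, 1.72 for Pcbd2, 1.3 for Ddx28, 1.63 for Sod1, 1.83 for Ndufb11, 1.9 for Ndufs5, 1.52 for Cox4i1 and 1.68 for Fkbp6, all higher with cryopreservation-2. It was -1.19 for Aqp9, -1.53 for Dazl and -3.07 for Gm4929. Of the 10 genes with the smallest p in the averaged contrast, 9 differed between the methods by this test, all but Trmu. Arid5b, a DNA-binding protein of the ARID family, was at 138, 286 and 106 CPM in fresh, at 231, 182 and 164 with cryopreservation-1 and at 5.69, 4.47 and 4.53 with cryopreservation-2, a difference of -5.30. The differences were -5.57 for Erbb3, a receptor tyrosine kinase, -5.70 for the pseudogene Rpsa-ps4, -8.34 for Prr18, -11.4 for Rhbdf1 and -10.4 for Trdn. Rhbdf1 and Trdn had no read in the 3 libraries of cryopreservation-2, so their fitted sizes depend on the prior count and are no bound. Without the 3 libraries with the fewest detected genes, edgeR called no gene in the contrast between the methods, among the 309 genes or elsewhere.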

How the results depend on the processing

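The count of called genes, 0 in edgeR, was 707 with DESeq2, 211 and 261 with limma at pseudocounts of 1 and 0.1, 1 with no filter, 136 at a mean FPKM of at least 5, 1 with RLE scaling, 9 with GC and length offsets, and 96 at an adjusted p under 0.10; it stayed 0 with upper-quartile scaling, with the 6 libraries as 1 group and without the 3 libraries with the fewest detected genes, and was 0 to 5 without single libraries. With the same sign in both methods the counts were 675, 204, 250, 131, 7 and 91 (DESeq2, limma at 1 and at 0.1, FPKM of at least 5, offsets, adjusted p under 0.10), and 0 to 2 without single libraries; at 1.5-fold with each they were 303, 72, 147, 45, 3 and 54, and 0 to 1. Each method by itself gave 12 with DESeq2. Among the 309 genes, those differing between the methods numbered 13, and 52, 43 and 33 with DESeq2 and limma at 1 and 0.1. They numbered 6 with the replicate block, 0 without the 3 libraries and 0 to 14 without single libraries. At an FPKM of at least 5 only 78 of the 309 were tested, and 26 of these 78 differed. With the replicate block edgeR called 0 genes in the averaged contrast; deviations of same-numbered fresh and cryopreservation-1 libraries correlated at 0.179, 0.295 and 0.350, and those with cryopreservation-2 between -0.331 and 0.138, so the numbers do not pair all 3 groups. At an FPKM of at least 5 the count of 136 became 51 with the replicate block, 224 with offsets (62.9% higher, against 90.4%) and 1 to 216 without single libraries; the count of 45 became 68 with upper-quartile scaling, 22 with the block, 69 without the 3 libraries and 0 to 91 without single libraries. DESeq2 gave 413 to 1001 without single libraries, and at 1.5-fold 543 without the 3 libraries and 180 to 617 without single ones. The causes were not tested.

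List medians moved by more than their spread between replicates as follows. With limma at a pseudocount of 1 they were -0.0178 for apoptosis, 0.383 for cytosolic ribosomal proteins, -0.0658 for iron handling, -0.0804 for maternal mRNA storage, -0.118 for the maturation promoting factor, -0.0933 for osmotic response, 0.0825 for splicing and -0.00374 for Zfp genes. At 0.1 they were -0.0531 for apoptosis, 0.0789 for autophagy, 0.178 for glycolysis, 0.0713 for heat shock, -0.139 for maternal mRNA storage, -0.157 for the maturation promoting factor, -0.277 for osmotic response, 0.188 for spindle, 0.109 for splicing, 0.283 for translation factors and -0.0246 for Zfp genes. At an FPKM of at least 5 they were -0.212 for cholesterol synthesis, 0.547 for cytosolic ribosomal proteins, -0.193 for osmotic response and 0.0224 for translation factors. With offsets they were -0.110 for maternal mRNA storage, -0.108 for the maturation promoting factor and -0.0198 for Zfp genes; immune markers were at 0.976 with the replicate block. Without the 3 libraries they were 0.0772 for autophagy, 0.190 for glycolysis, -0.289 for osmotic response, 0.135 for splicing and 0.0435 for the unfolded protein response. Without single libraries the medians ran from -0.113 to 0.0599 for autophagy, 0.0124 to 0.150 for glycolysis, -0.0476 to 0.0801 for heat shock, -0.376 to 1.83 for immune markers, -0.346 to -0.0889 for iron handling, -0.295 to -0.161 for maternal mRNA storage, -0.256 to -0.160 for the maturation promoting factor, -0.460 to -0.274 for osmotic response, -0.0891 to 0.0975 for spindle and 0.0310 to 0.165 for translation factors. The share of iron handling genes was lower by an exact permutation test (p = 0.0357, 0.472 adjusted over 34 measures); its difference was -0.0232 percentage points with cryopreservation-1 and -0.0421 with cryopreservation-2, neither past the threshold, which 3 against 3 libraries cannot reach. The log2 fold change changed sign for Bmp15 (0.0376 with offsets) and, without the 3 libraries, for Rbm3 (-0.0580) and Epcam (0.00311), and without single libraries it ran from -0.324 to 0.0340 for Gdf9, from -0.312 to 0.0271 for Epcam, from -0.0690 to 0.166 for Rbm3 and from -0.295 to 7.83 for Hspa1a.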
